A study of Mus musculus with 34 samples.

Results

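The proteasome genes of hematopoietic stem cells (HSCs) were followed in Ythdf2-deficient and control mice at 2 ages. The genes were the rows of the deposited count table whose symbol begins with Psm, then 1 letter from a to g and a number, without the 3 immunosubunits Psmb8, Psmb9 and Psmb10. The rule found 45 of the 13108 rows of the table. They held 8 genes of the alpha ring, 7 of the beta ring, 6 ATPases and 3 other subunits of the base, 8 lid subunits, 3 chaperones of base assembly, 5 activators or inhibitors and 4 chaperones of core assembly. The remaining gene, Psmc3ip, encodes a meiotic recombination factor and matched by name alone, so 44 of the 45 genes belong to the proteasome or its assembly. Psmb11 and Psme2b are of the same families and have no row in the table. HSCs were LSK CD48- CD150+ cells, sorted in samples of 100, and SMART-Seq2 libraries were made from their polyA RNA. Ythdf2 CTL mice were Ythdf2 fl/fl, labelled as wild type, and Ythdf2 CKO mice were Ythdf2 fl/fl;Vav-iCre, in which Cre under the Vav promoter deletes the gene throughout the blood lineages. The floxed allele carried by both genotypes has GFP after the start codon, so the controls make a GFP-YTHDF2 fusion, and all mice were on a C57BL/6 background. Young mice (8 to 12 wk) were 4 CTL and 4 CKO, and aged mice (1 yr) were 4 CTL and 5 CKO. The counts of the libraries of a mouse were summed, and the mouse was the replicate.

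The proteasome is the protease that degrades most ubiquitin-tagged proteins. Its barrel-shaped core has outer rings of alpha subunits, which form the gate, and inner rings of beta subunits, of which Psmb5, Psmb6 and Psmb7 carry the active sites. The regulatory particle caps the core, with a base of ATPases (Psmc genes) that unfold the substrate and a lid (Psmd genes) that removes the ubiquitin chain. Interferon-inducible Psmb8, Psmb9 and Psmb10 can take the places of Psmb5, Psmb6 and Psmb7, and the activator made of Psme1 and Psme2 can take the place of the regulatory particle. In many cell types the subunit genes are induced together by NFE2L1 through antioxidant response elements when proteasome activity is too low. HSCs are known for low rates of protein synthesis and for a need to keep their protein pool free of misfolded protein.

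A level is given as CPM, the counts of a gene brought to a common library total after TMM scaling over the 17 mice. Total counts per mouse ranged from 2218618 to 10125624 (median 6295263), and aged CTL 99, of which 1 of 2 libraries was used, had the lowest. Ythdf2 itself went against the label in 2 aged mice, with 188 CPM in CKO 121 against 72.4 to 87.8 in the other aged CKO mice and 70.5 CPM in CTL 124 against 142 to 179 in the other aged CTL mice. They are called below by their labels, and counts are also given without them. The libraries of young and aged mice carry different sequencing run names, so age and run cannot be told apart. The summed level of 4 Y-linked genes was above 5 CPM in 3 of 4 young CTL, 1 of 4 young CKO, 1 of 4 aged CTL and 1 of 5 aged CKO mice. Of 13 HSC markers all had counts in each group, with a summed level between 2078 and 3805 CPM over all mice. Cd48, which the sort excludes, was at 53.9 to 87.1 CPM in young CTL and 98.0 to 106 CPM in young CKO mice, and at 0.629 to 28.2 CPM in aged mice.

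Of the 45 genes, 37 had a promoter window (250 bases before to 50 after a RefSeq start, GRCm38.p6). The antioxidant response element core, spelled TGACNNNGC and searched on both strands, was present in 6 of the 37 genes (16.2%) and in 17.1% of the 9773 tested genes with a window. The interferon-stimulated response element, searched as TTTC, any 2 bases and TTTC, was present in 5 of the 37 (13.5%) and in 3.87% of all. An ETS site, spelled CCGGAAG, was held by 15 of the 37 (40.5%) and by 20.6% of all, and a CCAAT box, spelled CCAAT, by 13 (35.1%) and 42.8%. The gamma-activated sequence TTCNNNGAA, which reads alike on both strands, was held by 2 genes (5.41%) and by 8.21% of all. A match describes letters in this window and is no evidence of binding. Matches of the elements for NFE2L1 and for interferon are shown for 5 genes on which the results below turn, in 30 bases each, 5′ to 3′ on the strand of the gene, with the element in capitals.
Psmb5, chr14:54618023-54618052, minus strand: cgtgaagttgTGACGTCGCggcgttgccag
Psmb6, chr11:70525338-70525367, plus strand: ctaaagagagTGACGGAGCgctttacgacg
Psmc6, chr14:45329587-45329616, plus strand: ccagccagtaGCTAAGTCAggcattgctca
Psme1, chr14:55578493-55578522, plus strand: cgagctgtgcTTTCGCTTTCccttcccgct
Psmg4, chr13:34162969-34162998, plus strand: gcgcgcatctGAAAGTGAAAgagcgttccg
The first 3 hold the antioxidant response element core, which lies 47 bases before the start of Psmb5, 9 before that of Psmb6 and, as its reverse complement, 227 before that of Psmc6. The last 2 hold the interferon-stimulated response element, read as the reverse complement in Psmg4.

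Levels of different genes were compared per kilobase of the annotated principal transcript (GENCODE M21). In young CTL HSCs the 45 genes spanned 7.91 ± 2.11 CPM per kb (SD, n = 4) for Psme4, a large nuclear activator, to 1205 ± 180.1 CPM per kb for the alpha subunit Psma7, with a median of 206. The 14 core subunits other than the testis-type subunit Psma8 lay between 181 (Psmb7) and 1205 CPM per kb, although their proteins are present in equal number in a core. Next to Psma7 came the beta subunits Psmb6 (943 ± 127) and Psmb2 (938 ± 143), which did not differ beyond their spread, then Psma1 (681 ± 103). The 6 ATPases were closer together, at 96.0 (Psmc6) to 209.99 (Psmc4) CPM per kb. Psma8 stood at 18.1 ± 6.27 CPM per kb, next to last, and since it resembles Psma7 its reads may have been shared by the counting. Psma7 ranked first and Psma8 and Psme4 ranked last in each of the 4 groups.

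Together the 45 genes made up 1.33% to 1.63% of the CPM in young CTL, 1.36% to 1.55% in young CKO, 0.988% to 1.20% in aged CTL and 1.10% to 1.22% in aged CKO mice, so young and aged mice did not overlap. The 14 core subunits together were at 8047, 7118, 7828 and 9777 CPM in young CTL, 7112, 8888, 9377 and 6757 in young CKO, 5527, 4122, 5379 and 6331 in aged CTL and 5276, 5662, 4924, 5473 and 5643 CPM in aged CKO mice. The 17 subunits of the regulatory particle were at 4302, 4009.5, 4249 and 5035 CPM in young CTL, 4336, 4709, 4231 and 4619 in young CKO, 4187, 3240.2, 3392 and 3415 in aged CTL and 3464, 4341, 3607, 3659.5 and 4049.5 CPM in aged CKO mice. For the core no aged mouse reached a young mouse of either genotype, and for the regulatory particle the ages overlapped. Within a group, single mice moved many of the genes in the same direction. Aged CTL 99 was the lowest aged CTL mouse for 29 of the 45 genes, and young CTL 4 was the highest young CTL mouse for 31. The median over the 45 genes of the SD between mice, on the log2 scale, was 0.17 in young CTL, 0.23 in young CKO, 0.29 in aged CTL and 0.20 in aged CKO. Psmc6 was the steadiest gene in young mice (SD 0.05 on the log2 scale in CTL and 0.04 in CKO).

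**Figure D1:**
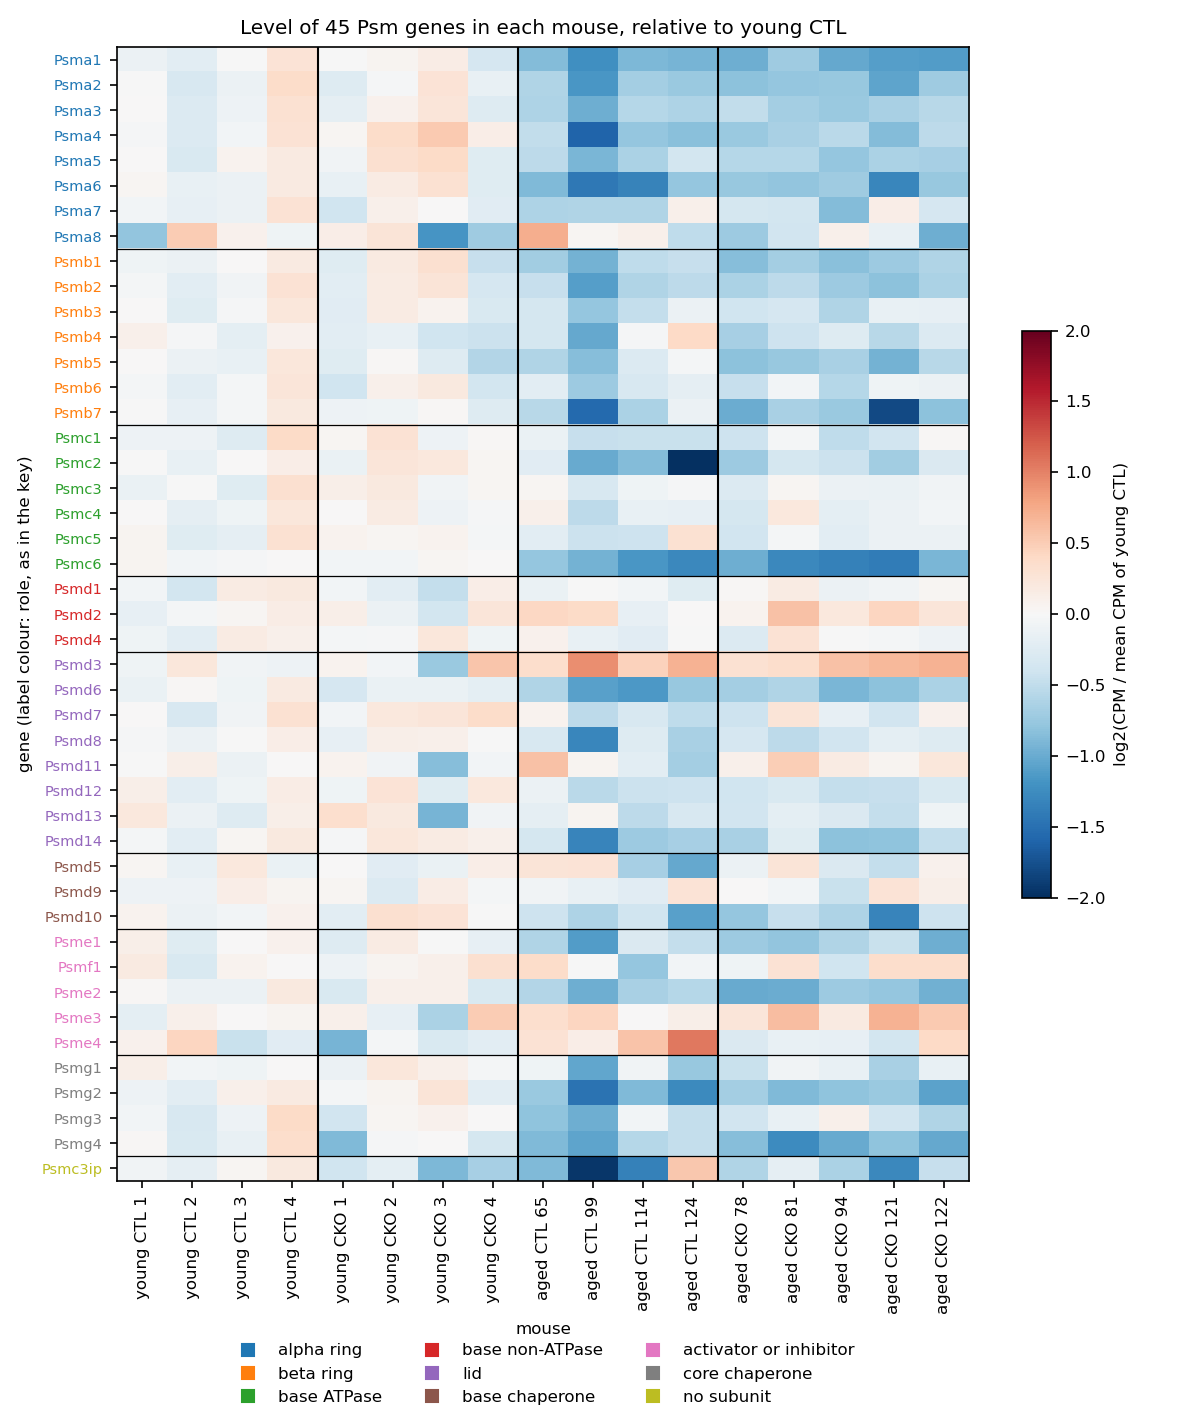
Level of each of the 45 genes (rows, ordered by role) in each of the 17 mice (columns) as log2 of its CPM over the mean CPM of young CTL mice; blue is lower and red is higher. The alpha ring is blue across the 9 aged mice from Psma1 to Psma6, while Psmd3 of the lid is red in each of them.

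Aged HSCs were then compared with young HSCs of the same genotype, in 1 fit over all 17 mice with edgeR's quasi-likelihood test, and p-values were adjusted by Benjamini-Hochberg over 12352 genes. In CTL HSCs 18 of the 45 genes were lower in aged mice and 0 were higher, while of all genes tested 8.07% were lower and 6.7% higher. In CKO HSCs 19 were lower and 0 higher, beside 9.34% and 7.21% of all genes. The median log2 fold change of the 45 genes was -0.41 in CTL and -0.32 in CKO HSCs, against 0.11 and 0.07 over all genes tested. A total of 16 genes were lower in both, which is 88.9% of the CTL calls and 84.2% of the CKO calls, 21 were lower in at least 1 genotype, and 24 in neither. The comparisons share no mouse but rest on 1 fit. Fewer transcripts per cell and another mix of cells among the sorted HSCs cannot be told apart in such samples. Groups of mice did not overlap for 18 lower genes and 1 higher gene in CTL (10% and 7.11% of all genes) and for 20 lower and 0 higher genes in CKO (11.3% and 9.07%). At an unadjusted p under 0.05 the edgeR counts were 25 lower and 2 higher in CTL and 21 lower and 2 higher in CKO, beside 14.3% and 15.6% of all genes in CTL and 15.4% and 14.7% in CKO. The CTL count depended on young CTL 4 in particular, without which 11 of the 45 genes were lower, beside 536 of 12496 genes. Without CKO 121 and CTL 124, 22 genes were lower in CTL and 18 in CKO and 0 were higher, where 1231 and 1288 of 12409 genes were lower. With library B of each mouse alone, where 3 aged CTL mice remain, 0 of the 45 genes were lower in CTL, beside 41 of 11742 genes, and 17 in CKO, beside 656. With library A alone these counts were 19 in CTL, beside 760 of 11850 genes, and 14 in CKO, beside 603. The splits by library were chosen after seeing the data.

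The alpha ring was the group with most calls. Psma1 to Psma6 were lower in aged HSCs of both genotypes, and Psma7 and Psma8 passed in neither. Psma1 (chromosome 7, 114264606 to 114276118) was at 756, 710.1, 815 and 992 CPM in young CTL and 447, 349.5, 440.2 and 428 CPM in aged CTL mice, and at 810.2, 852, 909 and 645 CPM in young CKO and 415, 502, 402, 381 and 377 CPM in aged CKO mice. Each aged mouse was below each young mouse, and the log2 fold change was -0.97 in CTL (adjusted p = 0.000646) and -0.95 in CKO HSCs (adjusted p = 0.000248). Psma6 had the largest decrease of all 45 genes in CTL HSCs, from 625, 548, 560.0 and 686 CPM to 329, 225, 239 and 352 CPM (log2 -1.08, adjusted p = 0.00103). In CKO HSCs Psma6 went from 547, 678, 747 and 509 to 357, 349, 369, 245 and 356 CPM (log2 -0.89, adjusted p = 0.00154). CKO 121, whose Ythdf2 level resembled that of controls, was the lowest of these 5 mice.

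Psma2, Psma3, Psma4 and Psma5 also had each aged mouse below each young mouse of the same genotype. Psma2 had 692, 561, 641 and 900.4 CPM in young CTL and 458, 311, 435 and 419.9 CPM in aged CTL mice (log2 -0.78, adjusted p = 0.00473), and 586, 685, 842 and 632 against 396, 407, 413, 337 and 425 CPM in CKO mice (log2 -0.79, adjusted p = 0.00217). For Psma3 the CTL values were 725, 594, 669 and 885 CPM in young and 467, 364, 484 and 466 CPM in aged mice (log2 -0.69, adjusted p = 0.00582), and the CKO values 637, 761, 851 and 599 and 509, 448, 430.4, 459.6 and 491 CPM (log2 -0.61, adjusted p = 0.00711). Aged CTL 99 stood below the other 3 aged CTL mice for Psma3. Psma4 was measured at 399, 332, 388 and 494 CPM in young CTL, 286, 132, 235 and 225 CPM in aged CTL, 416, 519, 577 and 442 CPM in young CKO and 242, 256, 278, 221 and 280.2 CPM in aged CKO mice. Its log2 fold change was -0.87 in CTL and -0.94 in CKO HSCs (adjusted p = 0.00556 and 0.00174). Psma5 levels were 459.7, 368, 478 and 516 CPM in young CTL and 315, 242, 295 and 352 CPM in aged CTL mice (log2 -0.60, adjusted p = 0.0192), and 434, 567, 595 and 384 and 308, 308, 267, 293 and 287 CPM in CKO mice (log2 -0.76, adjusted p = 0.00257). Psma7, the most abundant subunit per length, ranged from 987 to 1344 CPM in young CTL and from 719 to 1184 CPM in aged CTL mice, and the groups overlapped (log2 -0.40, adjusted p = 0.184).

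Within the beta ring, Psmb1 and Psmb2, which have no active site, were lower in aged HSCs of both genotypes. Psmb1 was at 641, 626, 688 and 769 CPM in young CTL and 420.4, 354, 479.8 and 493 CPM in aged CTL mice (log2 -0.64, adjusted p = 0.0134), and at 579, 767, 848 and 497 and 378, 425, 379.7, 412 and 449 CPM in CKO mice (log2 -0.72, adjusted p = 0.00359). Psmb2 went from 781, 697, 764 and 982 to 589, 374, 533 and 564 CPM in CTL (log2 -0.65, adjusted p = 0.0144) and from 699, 900.3, 962 and 638 to 521, 563, 486, 455 and 521 CPM in CKO mice (log2 -0.65, adjusted p = 0.00772). Among the catalytic subunits, Psmb5, which cuts after hydrophobic residues, and Psmb7, which cuts after basic residues, passed the test in CKO HSCs and not in CTL HSCs. Psmb5 was at 252, 231, 225 and 293 CPM in young CTL, 166, 139, 206 and 244 CPM in aged CTL, 212, 256, 209 and 168 CPM in young CKO and 141, 147, 159, 129.9 and 169.9 CPM in aged CKO mice. The log2 fold change was -0.41 in CTL (adjusted p = 0.129) and -0.50 in CKO HSCs (adjusted p = 0.0461), and the CKO groups overlapped by 1 young mouse. The CKO call was lost in 10 of 17 fits that left out 1 mouse. For Psmb7 the levels were 208, 188, 204 and 239.9 CPM in young CTL and 142, 71.4, 135 and 193 CPM in aged CTL mice (log2 -0.62, adjusted p = 0.0849), and 195, 198, 213 and 175 and 105, 134, 126, 60.0 and 119 CPM in CKO mice (log2 -0.84, adjusted p = 0.0143). Without CTL 124, both Psmb5 and Psmb7 passed in CTL HSCs too (log2 -0.57 and -0.86, edgeR). Psmb5 also passed in CTL with library A alone, and Psmb7 with DESeq2, with a Y-linked covariate and without CKO 121, while with library A alone the CKO calls of both were lost. Psmb6, which cuts after acidic residues, had 734, 653, 729.6 and 894 CPM in young CTL, 649, 456, 604 and 664 CPM in aged CTL, 568, 808, 864 and 586 CPM in young CKO and 546, 725, 507, 709 and 696 CPM in aged CKO mice. Its groups overlapped, and the log2 fold change was -0.34 in CTL and -0.15 in CKO HSCs (adjusted p = 0.196 and 0.583). In CTL it was called lower in 1 of 26 alternatives, the fit with a Y-linked covariate. Psmb3 and Psmb4 passed in neither genotype.

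In the base, the ATPase Psmc6 (chromosome 14, 45329788 to 45349705) had the largest decrease of the 45 genes in CKO HSCs and the smallest adjusted p in both genotypes. It was at 223, 207, 212 and 217 CPM in young CTL, 126, 111, 96.1 and 87.7 CPM in aged CTL, 207, 207, 219 and 216 CPM in young CKO and 109, 87.8, 84.3, 81.5 and 114 CPM in aged CKO mice. The groups were far apart, at 2.04-fold lower in aged CTL (log2 -1.03 ± 0.16, SE, adjusted p = 0.000493) and 2.23-fold lower in aged CKO HSCs (log2 -1.16 ± 0.15, adjusted p = 0.000138). Psmc2 passed in CTL alone, with 237, 217, 242 and 261 CPM in young CTL and 206, 118, 131 and 60.1 CPM in aged CTL mice (log2 -0.89, adjusted p = 0.0166), and 219, 282, 276 and 246 and 144, 188, 177, 147 and 195 CPM in CKO mice (log2 -0.59, adjusted p = 0.0764). Its lowest value was in CTL 124, one of the mice whose Ythdf2 level went against the label. The other 4 ATPases (Psmc1, Psmc3, Psmc4 and Psmc5) and the 3 base subunits without ATPase activity (Psmd1, Psmd2 and Psmd4, the last a ubiquitin receptor) passed in neither genotype. Psmd2, a scaffold of the base, was at 219, 238, 252 and 273 CPM in young CTL, 327, 321, 219 and 247 CPM in aged CTL, 267, 227, 189 and 289 CPM in young CKO and 258, 370.3, 284, 332 and 289.5 CPM in aged CKO mice, with overlap of the ages in both genotypes. The log2 fold changes of these 7 genes lay between -0.36 (Psmc1 in CTL) and 0.33 (Psmd2 in CKO).

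In the lid, Psmd6 and the deubiquitinase Psmd14 were lower in both genotypes, Psmd8 in CTL and Psmd12 in CKO HSCs. Psmd6 was at 253, 281, 261 and 313 CPM in young CTL and 183, 131, 125 and 164 CPM in aged CTL mice (log2 -0.88, adjusted p = 0.00145), and at 219, 252, 254 and 241 and 172, 182, 147, 157 and 179 CPM in CKO mice (log2 -0.53, adjusted p = 0.0147). Psmd14 was at 335, 297, 353 and 396 CPM in young CTL and 270.1, 138, 208 and 218 CPM in aged CTL mice (log2 -0.72, adjusted p = 0.0117), and at 339.6, 404, 387 and 372 and 221, 291, 196, 198 and 248 CPM in CKO mice (log2 -0.70, adjusted p = 0.00762). For both genes the ages did not overlap in either genotype. Psmd8 went from 354, 334, 359.8 and 394 to 287, 146, 302 and 231 CPM in CTL (log2 -0.57, adjusted p = 0.0335) and from 322, 389, 389 and 359 to 286, 251, 277, 314 and 301 CPM in CKO mice (log2 -0.35, adjusted p = 0.158). The CTL call of Psmd8 was lost in 4 of the 17 fits without 1 mouse (young CTL 1, 3 or 4 or aged CTL 99), without scaling and with either library alone. Psmd12 was at 237, 188, 207 and 242 and 201, 151, 162 and 165 CPM in young and aged CTL mice (log2 -0.36, adjusted p = 0.119) and at 206, 264, 184 and 252 and 166, 177, 157, 159 and 177 CPM in CKO mice (log2 -0.44, adjusted p = 0.0432), a call lost in 9 of the 17 fits without 1 mouse. The CKO call of Psmd12 was also lost without CKO 121 and CTL 124, without scaling and with either library alone. Psmd3, a scaffold of the lid, had the most positive fold change of the 45 genes. It was at 77.0, 95.4, 77.8 and 76.4 CPM in young CTL and 104, 156, 113 and 132 CPM in aged CTL mice, which did not overlap, and at 85.6, 78.6, 48.6 and 119.9 and 100.5, 105, 122, 128 and 132 CPM in young and aged CKO mice, which did. The test gave log2 0.62, adjusted p = 0.056 in CTL and log2 0.50, adjusted p = 0.105 in CKO HSCs, so Psmd3 was called in neither by edgeR, while DESeq2 called it higher in CTL, as did edgeR without scaling and without young CKO 3, young CKO 4 or aged CTL 65, and edgeR called it higher in CKO without young CKO 4. With library B alone its CKO estimate was -0.032. Psmd7, Psmd11 and Psmd13 were not called.

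**Figure D2:**
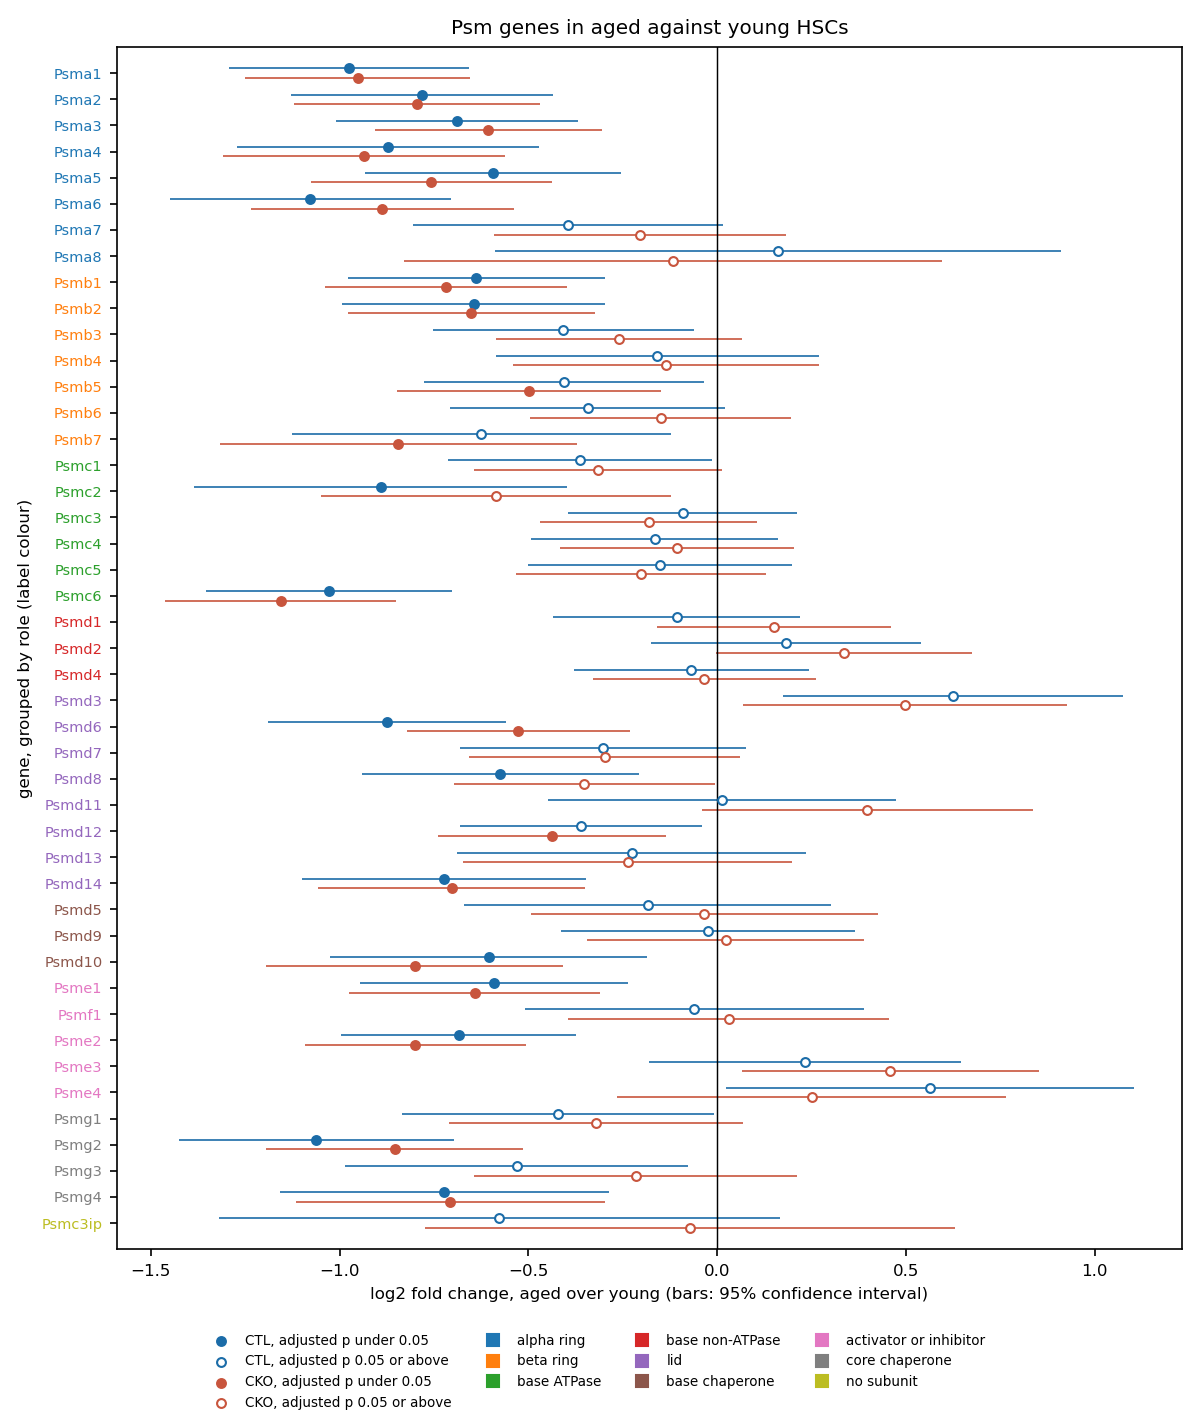
Log2 fold change of each of the 45 genes between aged and young HSCs in CTL (blue) and CKO (red) mice, with 95% confidence intervals as bars and genes past the adjusted threshold filled. Psma1 to Psma6 and Psmc6 lie left of 0 in both genotypes with intervals that leave out 0, and Psmd2, Psmd3, Psme3 and Psme4 lie right of 0 without a call.

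The interferon-inducible activator subunits Psme1 and Psme2, neighbours on chromosome 14, were lower in aged HSCs of both genotypes. Psme1 was at 719, 557, 664 and 702 CPM in young CTL and 434, 303, 541 and 473 CPM in aged CTL mice (log2 -0.59, adjusted p = 0.0246), and at 551, 742, 659 and 588 and 400.0, 380.4, 434, 485 and 335 CPM in CKO mice (log2 -0.64, adjusted p = 0.00929). Psme2 was at 484, 437, 437 and 542 CPM in young CTL and 316, 243, 302 and 319.6 CPM in aged CTL mice (log2 -0.68, adjusted p = 0.00542), and at 386, 511, 508 and 384 and 237, 238, 286, 279 and 245 CPM in CKO mice (log2 -0.80, adjusted p = 0.000924). The CTL call of Psme1 was lost in the fits without young CTL 1, 3 or 4 or aged CTL 99. The ages did not overlap for either gene, and reads of Psme2 may have been shared with its copy Psme2b. The nuclear activators Psme3 and Psme4 had positive estimates and were not called. Psme3 was at 134, 164, 153 and 159 CPM in young CTL, 192, 206, 152 and 165 CPM in aged CTL, 163, 137, 98.1 and 217 CPM in young CKO and 180.4, 235, 173, 247 and 219 CPM in aged CKO mice (log2 0.23, adjusted p = 0.463 in CTL and log2 0.46, adjusted p = 0.104 in CKO). Psme4 was at 54.5, 69.0, 37.8 and 44.1 CPM in young CTL, 62.8, 56.5, 76.2 and 107 CPM in aged CTL, 27.1, 49.7, 41.5 and 44.3 CPM in young CKO and 42.2, 46.5, 45.7, 39.7 and 67.8 CPM in aged CKO mice (log2 0.56, adjusted p = 0.149 in CTL and log2 0.25, adjusted p = 0.534 in CKO). Both genes overlapped between ages in each genotype, and in CTL the sign turned for Psme4 with library A alone (-0.18) and for Psme3 with library B alone (-0.057). The inhibitor Psmf1 had a log2 fold change of -0.06 in CTL and 0.03 in CKO HSCs.

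Of the 7 assembly chaperones of the core and the base, 3 were lower in aged HSCs of both genotypes. Psmg2, which pairs with Psmg1 to build the alpha ring, was at 204, 188, 234 and 246 CPM in young CTL and 129.6, 78.0, 118 and 90.5 CPM in aged CTL mice (log2 -1.06, adjusted p = 0.001), and at 211, 226, 261 and 189 and 136, 118, 125, 129.6 and 104 CPM in CKO mice (log2 -0.85, adjusted p = 0.00166). Psmg4, which pairs with Psmg3, was at 127, 101, 113 and 159 CPM in young CTL and 67.9, 60.2, 84.6 and 89.7 CPM in aged CTL mice (log2 -0.72, adjusted p = 0.0253), and at 67.8, 122, 125 and 98.6 and 69.7, 52.6, 62.1, 71.7 and 61.2 CPM in CKO mice (log2 -0.71, adjusted p = 0.0174). For Psmg4 the CKO ages overlapped by 1 young mouse. Psmd10, a chaperone of the base also known as gankyrin, was at 146, 127, 133 and 147 CPM in young CTL and 104, 89.96, 104 and 64.9 CPM in aged CTL mice (log2 -0.61, adjusted p = 0.0472), and at 119.8, 173, 168 and 138 and 80.8, 100.0, 90.1, 55.3 and 103 CPM in CKO mice (log2 -0.80, adjusted p = 0.00671). The CTL call of Psmd10 was lost in 11 of 17 fits that left out 1 mouse. Psmg1, Psmg3, Psmd5 and Psmd9 were not called in either genotype. Outside the rule, Pomp, the maturation factor of the core, and Sem1, a small lid subunit, were lower in aged HSCs of both genotypes (Pomp -0.92 in CTL and -0.80 in CKO, Sem1 -0.72 and -0.54 on the log2 scale), and the ubiquitin receptor Adrm1 was not called.

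Transcript length and level moved with the age comparisons, for the 45 genes and for all genes. The median annotated transcript was 1.44 kb for the 45 genes and 2.86 kb for all genes tested with a length. Among all genes shorter than 1.5 kb, 475 of 2159 were lower in aged CTL (22%) and 510 in aged CKO (23.6%) HSCs, and among longer genes 5.12% and 6.29%. Of the 23 proteasome genes shorter than 1.5 kb, 11 (47.8%) were lower in CTL and 13 (56.5%) in CKO, and of the 22 longer ones 7 (31.8%) and 6 (27.3%). At a mean level of at least 100 CPM the background rose further. There 39.4% of 784 short genes were lower in CTL and 41.5% in CKO, beside 10 and 12 of the 20 short proteasome genes at that level, and 16.1% and 17.6% of 1886 long genes, beside 7 and 6 of 18 long proteasome genes. Across the 45 genes the log2 fold change and the log10 of length had a Pearson correlation of 0.50 in CTL and 0.46 in CKO, and across all 12320 genes with a length 0.27 and 0.18, where genes share the same libraries. The TMM factors also differed by age, at 0.923 to 0.995 in young and 0.986 to 1.09 in aged mice. The part of length, level and sequencing run in the lower levels of aged mice was not tested. Without any scaling beyond the total count, an alternative chosen after seeing the data, the median of all genes moved by 0.10 on the log2 scale in each genotype. Calls over all genes then went from 828 higher and 997 lower to 1110 and 764 in CTL and from 891 and 1154 to 1126 and 870 in CKO, and of the 45 genes 16 were lower and 1 higher in CTL and 17 lower in CKO.

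**Figure D3:**
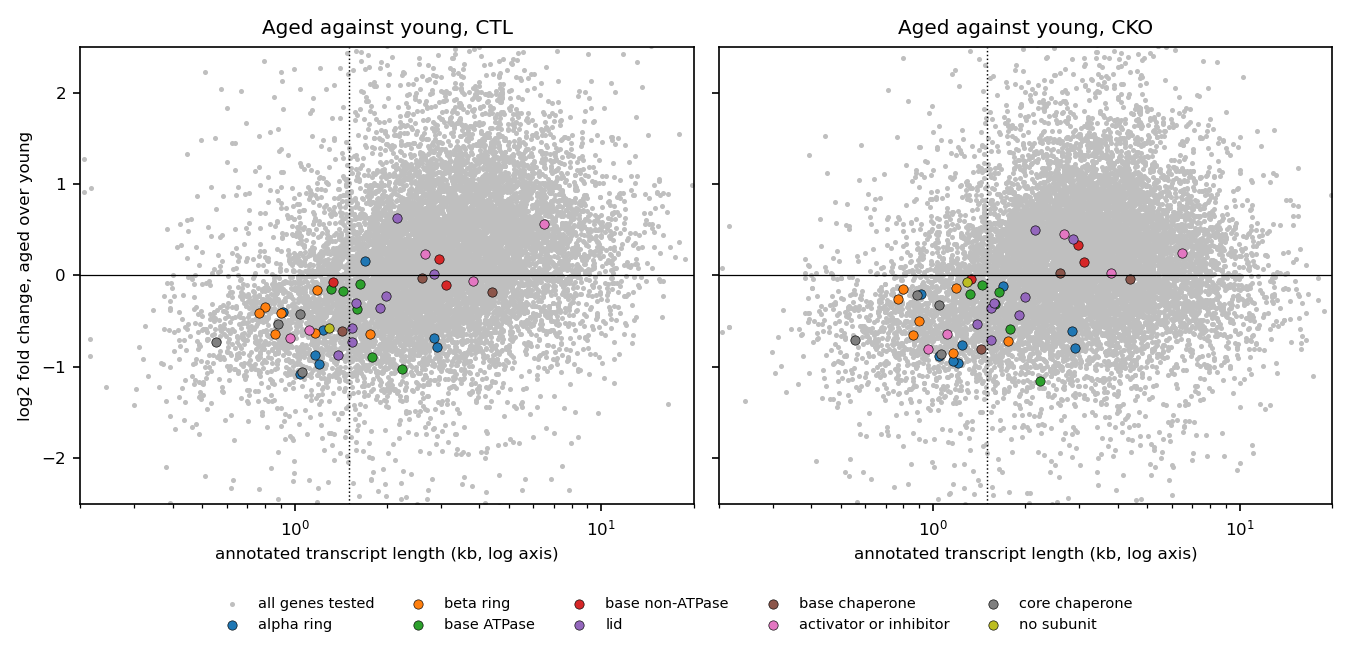
Log2 fold change between aged and young HSCs against annotated transcript length in CTL (left) and CKO (right) mice, with all genes tested that have a length in grey, the 45 genes in the colour of their role and a dotted line at 1.5 kb; 227 genes in CTL and 180 in CKO lie beyond 2.5 on the fold axis and 74 in each panel beyond the length axis, and these are not drawn. The core chaperones and the beta ring other than Psmb1 sit left of the line and below 0, while Psmc6, Psma2 and Psma3 lie below 0 at over 2 kb.

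Ythdf2-deficient HSCs were next compared with controls at each age by the same test in separate fits. In young mice 0 of the 45 genes were called higher and 0 lower, beside 0.13% and 0.0434% of 11526 genes tested. At an unadjusted p under 0.05, 0 were higher and 2 lower (Psmc3ip and Psmb4), beside 4.26% and 2.8% of all genes, and DESeq2 also called none of the 45. The median log2 fold change was -0.01 for the 45 genes. Psmc3ip, the gene that is no subunit, was at 82.5, 76.4, 89.9 and 99.3 CPM in young CTL and 65.9, 76.2, 46.7 and 54.7 CPM in young CKO mice, without overlap, and gave log2 -0.51, adjusted p = 0.539. It was the only one of the 45 genes whose young genotypes did not overlap, beside 2.09% of all genes that were lower and 2.68% that were higher without overlap. Psmb4 was at 288, 266, 236 and 287 CPM in young CTL and 233, 243, 205 and 199.5 CPM in young CKO mice (log2 -0.29, adjusted p = 0.706). All 7 beta ring genes had a negative estimate, from -0.29 for Psmb4 to -0.01, with none called. The most positive estimate was that of Psma4 (log2 0.28, adjusted p = 0.755), followed by the lid subunit Psmd7 (log2 0.21, adjusted p = 0.882). Psmd7 was at 377, 302, 359 and 462 CPM in young CTL and 363, 434.5, 444.6 and 482 CPM in young CKO mice, which overlapped. For the catalytic subunits the 95% confidence intervals of the log2 fold change were -0.57 to 0.08 for Psmb5, -0.42 to 0.24 for Psmb6 and -0.39 to 0.19 for Psmb7, and for the activator they were -0.34 to 0.23 for Psme1 and -0.38 to 0.22 for Psme2. A change of 2-fold in any of these 5 genes lay outside its interval. In the same mice the megakaryocyte and platelet markers had a median log2 fold change of 1.33 over 11 genes, with 1 called and a summed level of 632 to 1032 CPM in CTL and 1280 to 3629 CPM in CKO mice.

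In aged mice 0 of the 45 genes were called in either direction, and 0 of all 11961 genes were (0% each). At an unadjusted p under 0.05, 0 of the 45 were higher and 1 lower, beside 4.45% and 5.65% of all genes, and DESeq2 called none of the 45. Genotypes did not overlap for 0 lower and 0 higher genes of the 45 (1.7% and 1.78% of all genes). The gene with the unadjusted p was Psme4, at 56.5 to 107 CPM in the aged CTL and 39.7 to 67.8 CPM in the aged CKO mice listed above, with overlap (log2 -0.64, adjusted p = 0.413). Psmb5 (log2 -0.33, adjusted p = 0.571) and Psma8 (log2 -0.53, adjusted p = 0.623) had the next lowest p. Psma8 was at 50.8, 31.4, 33.0 and 21.6 CPM in aged CTL and 18.6, 23.6, 32.7, 27.8 and 15.5 CPM in aged CKO mice. In the other direction Psmc2 (log2 0.41, adjusted p = 0.657), Psme3 (log2 0.24, adjusted p = 0.683) and Psmg2 (log2 0.24, adjusted p = 0.713) led. For Psmc2 the aged CTL mice 99, 114 and 124 all lay below each aged CKO mouse, while aged CTL 65, at 206 CPM, lay above each aged CKO mouse. Leaving out 1 mouse gave Psmc2 estimates of 0.16 to 0.72. The 95% confidence intervals were -0.72 to 0.07 for Psmb5, -0.25 to 0.47 for Psmb6 and -0.90 to 0.29 for Psmb7 on the log2 scale. Without CKO 121 and CTL 124 none of the 45 genes was called, beside 25 higher and 15 lower of 12005 genes, and Psmb7 moved from -0.31 to 0.05 and Psme4 from -0.64 to -0.37. The platelet list had a median of 1.21 in this comparison, with 0 of 11 called.

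**Figure D4:**
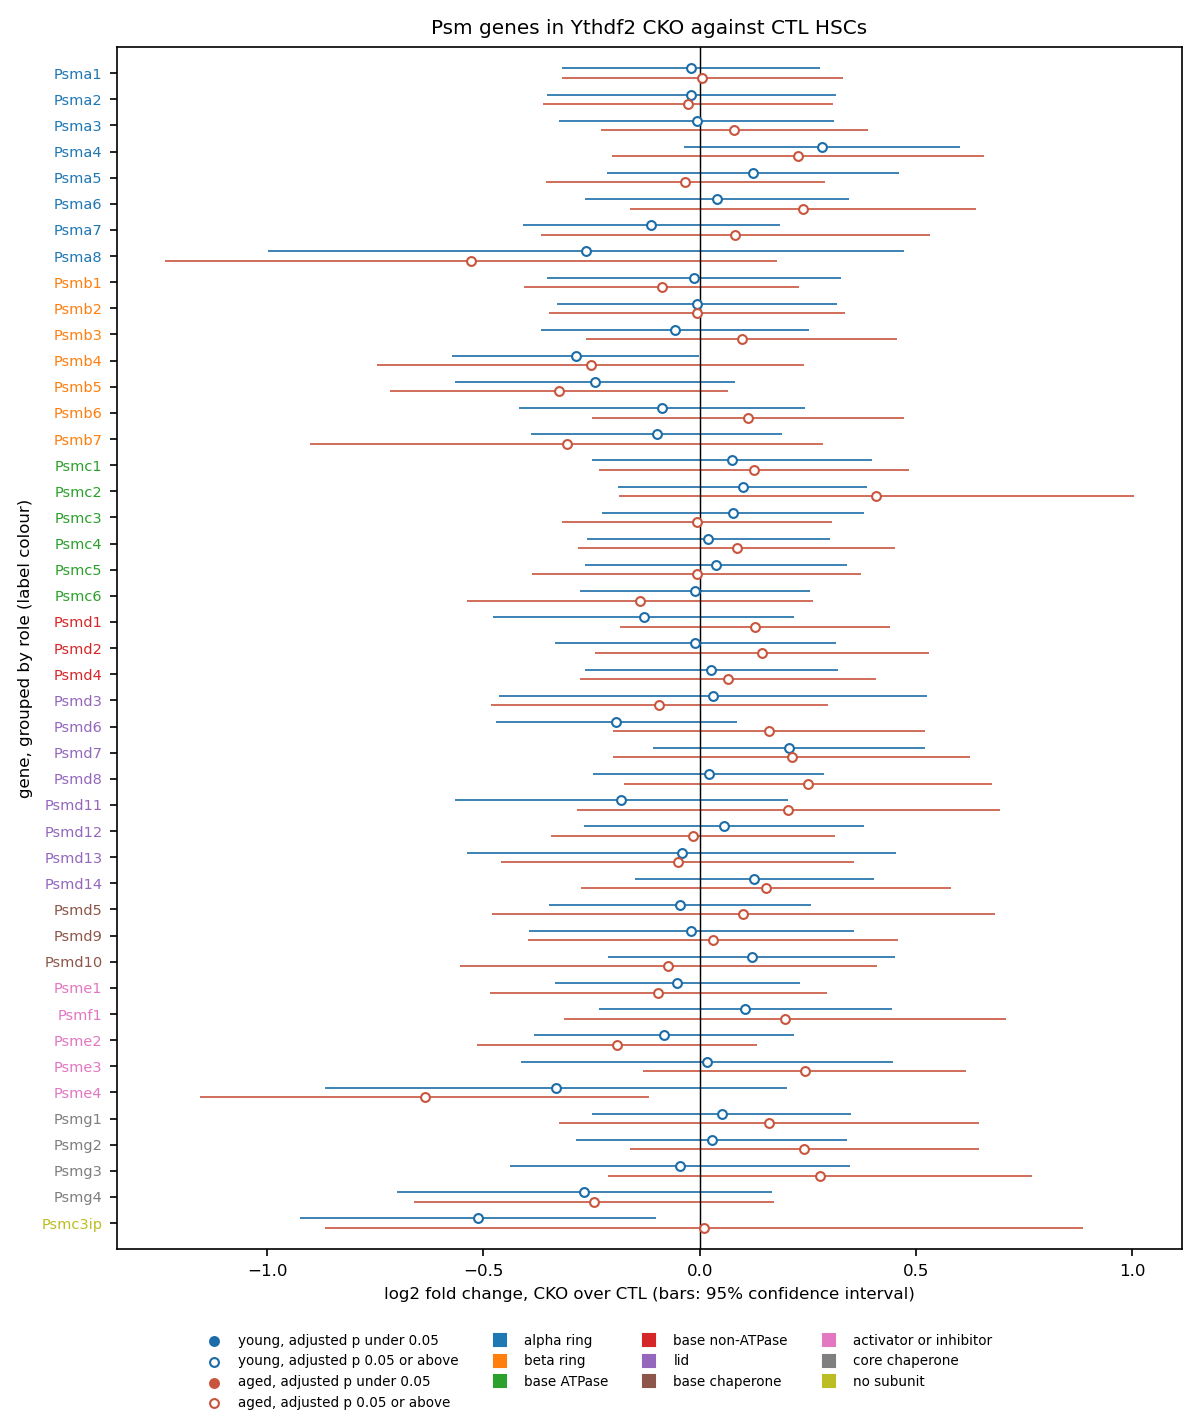
Log2 fold change of each of the 45 genes between Ythdf2 CKO and CTL HSCs in young (blue) and aged (red) mice, with 95% confidence intervals as bars. No point is filled, since none passed the adjusted threshold, and most intervals cross 0, apart from those of Psmc3ip and Psmb4 in young and Psme4 in aged mice.

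Whether the genotype difference itself differed between ages was tested by the interaction term of the fit over 17 mice. None of the 45 genes was called (0 of 12352 genes, 0% in each direction), and 0 had an unadjusted p under 0.05, beside 2.06% of all genes in the positive and 2.7% in the negative direction. DESeq2 called none of the 45 either. The smallest p belonged to Psmd6, with a difference of 0.35 ± 0.21 (SE) on the log2 scale (edgeR, adjusted p = 0.999), followed by Psmd11 (0.38) and Psmd1 (0.26). Psmd11 was at 187, 203, 173 and 189.6 CPM in young CTL, 197, 179, 104 and 182 CPM in young CKO, 283, 196, 162 and 117 CPM in aged CTL and 201, 265, 210.0, 195 and 219 CPM in aged CKO mice. Psmd1 was at 248, 202, 290.2 and 297 CPM in young CTL, 251, 225, 186 and 283 CPM in young CKO, 237, 257, 249.98 and 219 CPM in aged CTL and 263, 291, 239, 248 and 268 CPM in aged CKO mice, with overlap throughout. In the negative direction Psme4 (-0.31), Psma5 (-0.16) and Psmd10 (-0.20) came first. The genes called in 1 genotype with age and not in the other (Psmc2, Psmd8, Psmd12, Psmb5 and Psmb7) were thus not shown to differ between genotypes.

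The share of each catalytic pair held by the immunosubunit was taken per length, as CPM per kb of the immunosubunit over the sum of both. Psmb8 made up 72.6, 73.1, 75.3 and 74.4% of Psmb8 and Psmb5 in young CTL, 75.1, 75.3, 79.3 and 79.2% in young CKO, 79.0, 81.2, 80.0 and 69.9% in aged CTL and 76.7, 76.2, 74.9, 85.5 and 73.8% in aged CKO mice, so the immunosubunit was the more abundant transcript of this pair in each of the 17 mice. Psmb10 made up 63.6, 60.5, 61.1 and 59.6% of Psmb10 and Psmb7 in young CTL, 60.4, 62.2, 62.4 and 60.2% in young CKO, 71.8, 77.3, 72.3 and 56.9% in aged CTL and 69.4, 61.8, 67.2, 84.3 and 66.1% in aged CKO mice. Psmb9 was the minor transcript beside Psmb6, with 20.8, 22.8, 22.5 and 21.5% in young CTL, 27.7, 27.0, 24.0 and 26.8% in young CKO, 20.9, 24.2, 24.7 and 19.4% in aged CTL and 22.1, 14.9, 24.3, 23.4 and 15.4% in aged CKO mice. CKO 121 had the highest Psmb8 and Psmb10 shares of the aged CKO mice, and CTL 124 the lowest of the aged CTL mice. In young mice the Psmb9 share was 21.9% ± 0.936 (SD, n = 4) in CTL and 26.4% ± 1.61 (n = 4) in CKO, without overlap, which gave a two-sided exact permutation p of 0.0286, the smallest that 4 against 4 mice can give, and 0.171 after Benjamini-Hochberg adjustment over 6 tests. The Psmb8 share was 73.9% ± 1.27 in young CTL and 77.2% ± 2.31 in young CKO mice (exact permutation p = 0.0857, adjusted 0.257). The remaining 4 tests had adjusted p of 0.825 or more. With CKO 121 and CTL 124 left out, the mean aged CKO shares lay below those of CTL. The differences were -4.67 (Psmb8), -4.08 (Psmb9) and -7.64 (Psmb10) percentage points, at adjusted exact permutation p of 0.114, 0.411 and 0.114. The Psmb8 shares were then 79.0 to 81.2% in CTL and 73.8 to 76.7% in CKO mice, without overlap. The Psmb10 shares were 71.8 to 77.3% and 61.8 to 69.4%, also without overlap, while the Psmb9 shares overlapped. Only 3 against 4 mice entered, and even complete separation cannot pass the adjusted threshold with so few. The test therefore could not decide whether the Psmb8 and Psmb10 shares differed.

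**Figure D5:**
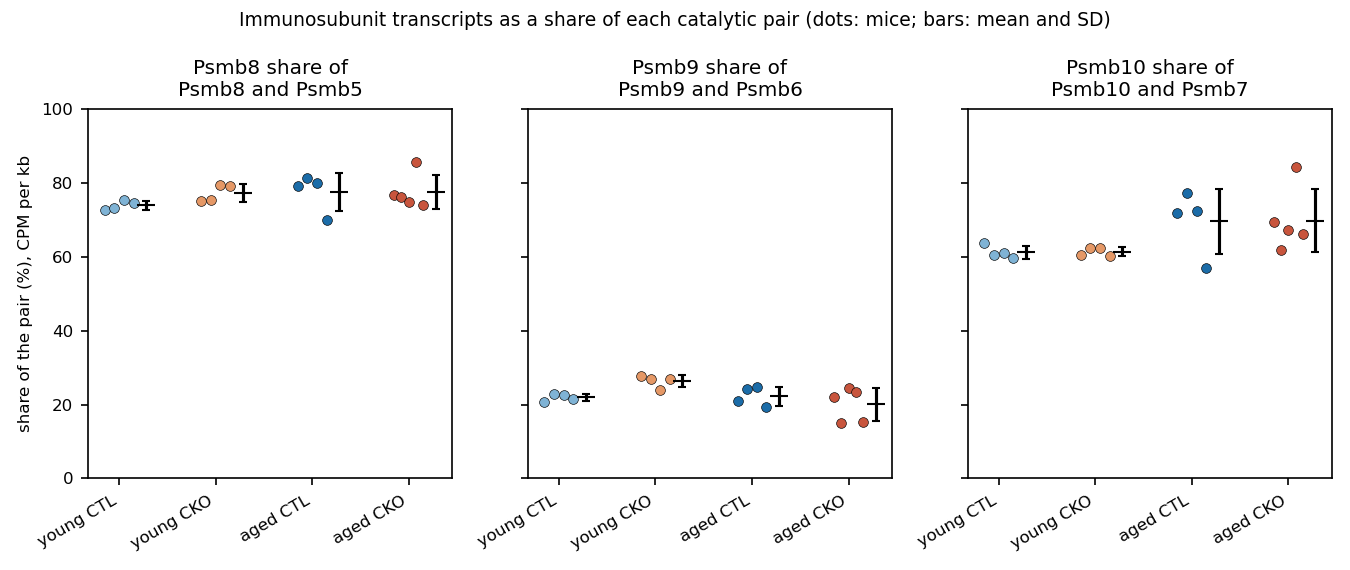
Share of the immunosubunit transcript in each catalytic pair, in percent of the summed CPM per kb, for each mouse (dots) with the group mean and SD beside it. The Psmb8 share is 69.9% or more in each mouse and the Psmb9 share 27.7% or less, and the spread of the Psmb10 share is wider in the aged groups.

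Of the 3 immunosubunits themselves, 0 were called lower in aged CTL HSCs and 1 in aged CKO HSCs. Psmb8 had a log2 fold change of -0.11 in CTL and -0.43 in CKO HSCs (adjusted p = 0.697 and 0.08), and Psmb10 -0.13 and -0.29. Psmb9 was called lower in CKO HSCs (log2 -0.67, adjusted p = 0.00908) and not in CTL HSCs (log2 -0.32, adjusted p = 0.232).

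Other genes of the pathway were taken from lists of its known members, and their counts stand beside the 6.7% of all genes higher and 8.07% lower in aged CTL and the 7.21% and 9.34% in aged CKO HSCs. Of 16 factors that bind the proteasome, 2 were higher and 3 lower in aged HSCs of each genotype. The ubiquitin shuttles Ubqln2 (1.21 in CTL and 0.92 in CKO on the log2 scale) and Ubqln4 (1.03 and 0.87) were higher, and the deubiquitinases Usp14 (-0.81 and -0.62) and Uchl5 (-0.60 and -0.66) and the thioredoxin-like Txnl1 (-0.74 and -0.73) were lower. Of 13 genes of the NFE2L1 and NFE2L2 response and the machinery that processes NFE2L1, 3 were higher (Nfe2l1, Mafg and Sel1l) and 1 lower (Ufd1) in CTL, and 3 were higher (Nfe2l1, Keap1 and Nploc4) in CKO HSCs. Nfe2l1 was at 14.96, 29.6, 16.3 and 17.2 CPM in young CTL, 27.3, 38.8, 41.2 and 56.0 CPM in aged CTL, 14.4, 18.8, 17.8 and 14.7 CPM in young CKO and 31.7, 37.2, 31.1, 53.0 and 43.3 CPM in aged CKO mice. It was higher in aged HSCs of both genotypes (log2 1.06, adjusted p = 0.0203 in CTL and log2 1.26, adjusted p = 0.00535 in CKO), while the 18 and 19 proteasome genes called with age were all lower. The ages overlapped in CTL, where aged CTL 65 was below young CTL 2, and not in CKO. Of 6 genes for ubiquitin and its activating enzymes, Uba1 was higher in both genotypes (0.74 in CTL and 0.87 in CKO), Uba6 lower in CTL (-0.84) and Rps27a lower in CKO (-0.75). Between genotypes none of these lists had a call at either age. The markers that moved with age in the same mice included Cd48, which was lower in both genotypes (-2.48 and -3.04). Of the 11 megakaryocyte and platelet genes 2 were called higher in CTL and 4 in CKO, among them Selp and Vwf in both, and 0 lower. Most of this list went the other way in CTL, with 8 of 11 estimates negative and a median of -0.18 on the log2 scale. In CKO 5 of 11 were negative, with a median of 0.41. HSC markers were called in both genotypes, those in CKO being Gata2 (1.05) and Kit (0.47), which were higher, and Ly6a (-1.10), which was lower, and of the 4 erythroid markers tested Car1 was lower in CKO (-3.32). The summed level of the megakaryocyte and platelet list was 632 to 1032 CPM in young CTL, 677 to 979 in aged CTL, 1280 to 3629 in young CKO and 936 to 2841 CPM in aged CKO mice, and none of its 11 genes was at 0 in a whole group. The 936 CPM was that of CKO 121, where Pf4 was at 294 CPM against 917 to 1382 CPM in the other aged CKO mice. Of 7 T and NK cell markers 2 have a row, with a summed level of 393 to 530.4 CPM in young CTL, 144 to 318 in aged CTL, 355 to 471 in young CKO and 160.3 to 329 CPM in aged CKO mice, and of these Nkg7 was called lower in both genotypes. Of 7 B cell markers 3 have a row, and only 1 was tested. It was not called, at log2 -0.56 in CTL (edgeR, adjusted p = 0.118) and -0.64 in CKO HSCs (adjusted p = 0.0528). Ms4a1 was at 0 in each group. The part of these markers in the age differences was not tested.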

How the data were processed

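RNA-seq counts of 100-cell HSC samples were used. The authors aligned SMART-Seq2 reads to GRCm38 (mm10 in the submitters' processing notes) with HISAT2 and assigned them to genes with Rsubread. The deposited values are raw counts for 34 libraries. Annotation and strand setting are not given in the sources used here. The 20 rows with date-like names stayed in the totals. Aged CTL 99 B (187034 counts) was left out, and libraries were summed per mouse, between 2218618 and 10125624 counts. Nothing states that libraries of a mouse were separate cultures, and they were not treated as replicates.

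Genes passing filterByExpr (minimum count 10, minimum total 15) were scaled by TMM, and edgeR 4.0.16 in R 4.3.3 gave quasi-likelihood tests, with Benjamini-Hochberg adjustment over all genes tested at 0.05. For genotype each age had a fit of its own, and all 17 mice entered 1 fit for age and the interaction. Shares were compared by exact permutation in scipy 1.17.1. On simulated data with known changes the fits called most of the larger changes put in. Those data had the same spread for each gene and no outlying mice or run effect, and no claim is made for smaller changes. Genes given in every mouse were Psmb5, Psmb6, Psmb7, Psme1, Psme2, those called in any comparison, and the 3 with the smallest p per direction. The genes and lists were chosen with earlier results of these data known. Alternatives were each library as a replicate, DESeq2 1.42.0, its size factors, no filter, no scaling, a Y-linked covariate, a replicate block, single libraries, and leaving out mice. Coordinates and lengths are from GENCODE M21. The result of 1 marker gene is not reported here.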

Additional observations from a re-analysis of the deposited data

Results flagged for a closer look

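Within groups of 4 or 5 mice, a mouse far from the rest by Dixon's criterion was looked for in 152 sets of values, of which chance picks about 1 in 20, and 6 were found. Psma3 was at 363.6 CPM in aged CTL 99, below the 466.5 CPM of the next mouse. Psma6 was at 245.3 CPM in aged CKO 121 against 348.9 CPM in the next mouse. Psmd3 was at 95.41 CPM in young CTL 2, above 77.82 CPM in the next. Psme4 was at 67.83 CPM in aged CKO 122, above 46.46 CPM. Ythdf2 was at 188.1 CPM in aged CKO 121, with 87.75 CPM in the next mouse. The Psmb8 share of Psmb8 and Psmb5 was 85.5% in aged CKO 121, above 76.71%. Aged CKO 121 thus stood apart in 3 of the 6 sets.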

How the results depend on the processing

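The genotype comparisons and the interaction gave 0 proteasome genes in either direction under each alternative run, while calls over all genes reached 66 higher and 24 lower at the young age, 136 and 284 at 1 yr and 1 and 14 in the interaction. Same-numbered young mice of both genotypes did not deviate together (correlations of -0.033 to 0.063, and only mouse 1 was closest to its own number), so the numbers were not used as pairs. This check cannot exclude that same-numbered mice were littermates or were handled together. A replicate block on that number gave 0 higher and 0 lower genes, and one on the library letter in aged mice gave 0 and 0.

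For aged against young mice, leaving out 1 mouse gave 11 to 22 lower and 0 to 1 higher genes in CTL and 16 to 20 lower and 0 to 2 higher genes in CKO. Over all genes these fits gave 536 to 1194 lower and 360 to 956 higher in CTL and 709 to 1476 and 474 to 1179 in CKO. The 2 higher genes, Psmd3 and Psme3, appeared without young CKO 4. The 1 higher gene in CTL under DESeq2 and under no scaling was Psmd3. Library B alone, added after seeing the data, gave 0 lower genes in CTL. The calls lost most often when 1 of 17 mice was left out were Psmd10 in CTL (11 times) and Psmb5 (10) and Psmd12 (9) in CKO, and the cause was not tested. In CTL, Psmd8 and Psme1 lost theirs 4 times, Psma5 and Psmg4 3 times and Psmb1 and Psmb2 1 time, and in CKO Psmg4 did 2 times.

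Some estimates changed sign. Without CKO 121 and CTL 124 these were Psmb7 between aged genotypes (0.048) and Psmb5 (0.10) and Psmb7 (0.15) in the interaction. With a Y-linked covariate they were Psmb5 (0.014), Psme1 (0.087) and Psme2 (0.011) in the interaction. Between ages, library A alone turned Psme4 in CTL (0.56 to -0.18), and library B alone turned Psme3 in CTL (-0.057) and Psmd3 in CKO (0.50 to -0.032). Leaving out 1 mouse gave ranges of -0.20 to 0.0048 for Psmb6 and -0.13 to 0.010 for Psme1 between young genotypes, -0.0072 to 0.18 for Psmb6 and -0.25 to 0.013 for Psme1 between aged genotypes, and -0.22 to 0.061 for Psmb5, -0.43 to 0.0032 for Psmb7 and -0.20 to 0.062 for Psme1 in the interaction, all on the log2 scale.

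The immunosubunit shares of CKO less CTL mice that changed sign were Psmb10 in aged mice (-7.64 percentage points without CKO 121 and CTL 124) and, with each library as a sample, Psmb8 in aged (0.495) and Psmb10 in young mice (-0.403). Leaving out 1 mouse gave -0.389 to 0.939 for Psmb10 in young, -2.65 to 1.12 for Psmb8 in aged and -4.00 to 2.80 for Psmb10 in aged mice.

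Age and sequencing run cannot be told apart, and 4 or 5 mice a group leave wide intervals for the genotype differences. Depth limits the aged CTL group most, where 3 counts in a mouse stand for up to 1.24 CPM, far below the levels of the proteasome genes.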
